A study of Mus musculus with 12 samples.

Results

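The genes described here are 10 markers of the primitive streak and of mesendoderm, *T*, *Mixl1*, *Gsc*, *Evx1*, *Mesp1*, *Mesp2*, *Lhx1*, *Foxh1*, *Tbx6* and *Msgn1*, out of 34836 gene names on the array. They were taken by symbol and were read by 12 of the 55681 probes, since *Lhx1* and *Tbx6* had 2 probes each. The primitive streak is the site in the gastrulating embryo where epiblast cells leave the epithelium and become mesoderm and definitive endoderm. Wnt and Nodal signals switch on the T-box factor Brachyury, encoded by *T*, at this site. ES cells, which resemble the epiblast before gastrulation, can carry streak transcripts in a subset of cells, whereas XEN cells stand for the extraembryonic endoderm, which forms earlier and by another route.

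RNA was measured on 12 single-colour arrays, 3 for each of 4 groups, and all 12 were labelled day 4. Every group was derived from mouse EB3 ES cells carrying Gata6GR, the full-length mouse *Gata6* fused to the ligand-binding domain of the human glucocorticoid receptor and driven by the CAG promoter, so that dexamethasone (Dex) activates Gata6. In *Sox7* (+/−) cells a puromycin resistance cassette replaced the *Sox7* coding exons on one allele, and *Sox7* (−/−) cells were a clone that became homozygous for it under high-dose puromycin. Each genotype was 1 clone. Cells given Dex were named XEN-like cells and cells without it ES cells, and all were kept in medium with LIF. The arrays of a group were treated as replicates, but all 3 *Sox7* (+/−) ES arrays share the label of a first replicate in one field, so whether they came from separate cultures is not known, and the p-values then measure only the spread between these arrays.

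The values below are signals as a percent of the 75th percentile of the same array, which removes differences in overall brightness. That percentile lay between 252 and 414 intensity units. Spots well above background made up 41.7% to 52.3% of an array. *Sox7* itself read 219% to 230% in *Sox7* (+/−) ES cells and 491% to 690% in *Sox7* (+/−) XEN-like cells, and it was below background on all 6 *Sox7* (−/−) arrays, so the signal followed the labels. Whether this probe lies in the replaced exons was not analysed here. With Dex, 12 of 18 extraembryonic endoderm genes were called higher and 1, *Cubn*, lower in *Sox7* (+/−) cells, and 15 higher and none lower in *Sox7* (−/−) cells, beside 10.9% and 14.5% of all probes called higher. Of 12 pluripotency genes, 9 were called lower and 1, *Klf4*, higher in *Sox7* (+/−) cells, and 10 lower and none higher in *Sox7* (−/−) cells, beside 14.0% and 14.3% of all probes called lower. For this comparison *Cubn* and *Klf4* were named after their values were seen. A gene was called when the Benjamini-Hochberg adjusted p of limma was under 0.05 and the change was over 2-fold, and each gene was read by its brightest probe. The 8 arrays of the *Sox7* (+/−) groups and of *Sox7* (−/−) XEN-like replicates 2 and 3 were on slide 1, and the other 4 arrays were on slide 2, so that in ES cells the genotype and the slide could not be told apart except through the *Sox7* (−/−) XEN-like arrays. The Dex response in *Sox7* (−/−) cells was also largely a comparison between slides, whereas that in *Sox7* (+/−) cells lay within slide 1. The *Sox7* (−/−) responses below, and the differences between the 2 responses, carry this limit.

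Most of the streak genes that could be measured were present in *Sox7* (+/−) ES cells and fell to or near background with Dex, *Tbx6* being the exception. In *Sox7* (+/−) ES cells 7 of the 10 genes were well above background on all 3 arrays, whereas in *Sox7* (−/−) ES cells 4 were. In XEN-like cells the number was 1 in *Sox7* (+/−) and 2 in *Sox7* (−/−) cells. These counts were not taken at an equal limit. The lowest signal well above background was 5.81% to 6.93% on *Sox7* (+/−) ES arrays and 8.60% to 9.38% on *Sox7* (−/−) ES arrays. On XEN-like arrays it was 8.92% to 10.1% in *Sox7* (+/−) and 6.57% to 8.86% in *Sox7* (−/−) cells. *T* and *Evx1* were well above background on all 3 *Sox7* (+/−) ES arrays and on no *Sox7* (−/−) ES array, and *Tbx6* was the gene that stood higher in *Sox7* (+/−) XEN-like cells. In bulk RNA, fewer cells with a transcript and less transcript per cell cannot be told apart.

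**Figure D1:**
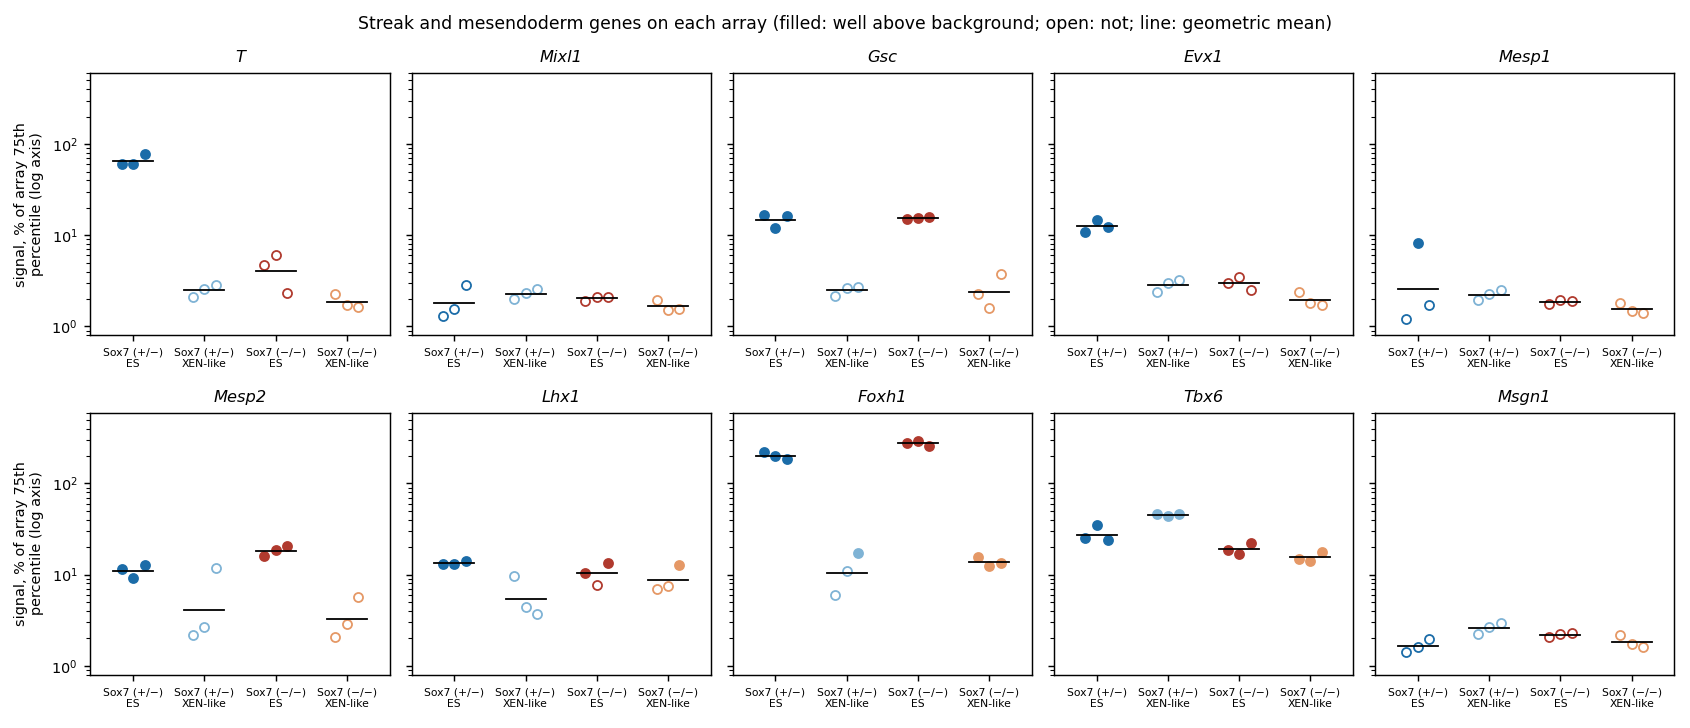
Signal of each of the 10 genes on the 12 arrays, as a percent of the array's 75th percentile on a log axis, in *Sox7* (+/−) and *Sox7* (−/−) ES and XEN-like cells. Filled points were well above background, open points were not, and the line is the geometric mean of 3 arrays. *T* has filled points only in *Sox7* (+/−) ES cells, at 60.6% to 77.3%.

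*T* encodes Brachyury, the factor that defines the streak, and its probe lies at chr17:8635302-8635361 of mm9. In *Sox7* (+/−) ES cells it read 60.9%, 60.6% and 77.3%, with a mean of 66.3% ± 9.60 (SD, n = 3). In *Sox7* (+/−) XEN-like cells it read 2.11%, 2.55% and 2.86%, in *Sox7* (−/−) ES cells 4.71%, 6.09% and 2.33%, and in *Sox7* (−/−) XEN-like cells 2.25%, 1.70% and 1.65%, and none of those 9 values was well above background. Its signal was at least 6.99-fold lower with Dex in *Sox7* (+/−) cells (adjusted p = 3.63e-07) and at least 7.24-fold lower in *Sox7* (−/−) than in *Sox7* (+/−) ES cells (adjusted p = 6.51e-06). *Evx1*, a homeobox gene of the posterior streak with its probe at chr6:52268298-52268357, was measured in the same group. It read 10.9%, 14.8% and 12.4% in *Sox7* (+/−) ES cells and between 1.70% and 3.49% on the other 9 arrays, none of which was well above background. It was at least 1.34-fold lower with Dex in *Sox7* (+/−) cells (adjusted p = 2.74e-06) and at least 1.39-fold lower in *Sox7* (−/−) ES cells than in *Sox7* (+/−) ES cells (adjusted p = 1.66e-05). *T* and *Evx1* entered the test only through *Sox7* (+/−) ES cells, where they were high. That favours a difference from this group, so their adjusted p are a description. With normexp background correction, which compresses dim signals, the log2 differences of *T* were -1.71 with Dex and -1.79 between genotypes and were still called, whereas those of *Evx1* were -0.30 and -0.39 and were not.

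The promoters of *T* and *Evx1*, measured in *Sox7* (+/−) ES cells, and of *Gsc* and *Mesp2*, measured in ES cells of both genotypes, are printed as examples. Each is the 250 bases before the start of the gene in the RefSeq annotation of GRCm38.p6, 5′ to 3′ in the direction of the gene, and capitals mark matches to the LEF/TCF motif CTTTGAA and to the T-box core AGGTGT on either strand. These positions are of another build than those of the probes. The window of *T* is chr17:8434173-8434422 on the plus strand, that of *Evx1* chr6:52313248-52313497 on the plus strand, that of *Gsc* chr12:104473237-104473486 on the minus strand and that of *Mesp2* chr7:79810477-79810726 on the plus strand.
T: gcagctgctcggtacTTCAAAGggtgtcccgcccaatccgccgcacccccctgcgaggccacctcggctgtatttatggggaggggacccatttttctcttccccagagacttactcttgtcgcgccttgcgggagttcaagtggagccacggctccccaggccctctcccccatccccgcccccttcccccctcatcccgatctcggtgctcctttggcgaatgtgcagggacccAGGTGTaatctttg
Evx1: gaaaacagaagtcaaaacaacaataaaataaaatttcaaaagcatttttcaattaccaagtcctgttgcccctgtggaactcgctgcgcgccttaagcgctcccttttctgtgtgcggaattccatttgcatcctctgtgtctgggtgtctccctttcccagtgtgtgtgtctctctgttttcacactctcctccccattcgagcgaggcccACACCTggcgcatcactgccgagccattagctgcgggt
Gsc: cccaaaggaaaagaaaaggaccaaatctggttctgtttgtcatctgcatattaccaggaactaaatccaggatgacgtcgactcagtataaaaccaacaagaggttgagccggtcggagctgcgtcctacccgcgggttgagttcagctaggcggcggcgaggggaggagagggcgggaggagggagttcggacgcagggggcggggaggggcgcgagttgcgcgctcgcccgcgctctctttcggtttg
Mesp2: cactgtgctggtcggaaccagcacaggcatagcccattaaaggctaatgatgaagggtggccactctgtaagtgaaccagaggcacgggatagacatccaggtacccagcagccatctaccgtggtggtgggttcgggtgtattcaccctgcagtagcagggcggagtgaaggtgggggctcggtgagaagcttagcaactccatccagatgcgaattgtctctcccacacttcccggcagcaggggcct
The *T* promoter held a LEF/TCF match with its first base 235 bases before the start and a T-box match 14 bases before it, and the *Evx1* promoter a T-box match 38 bases before it. Neither motif, nor the GATA motif AGATAA, the FOXH1 motif AATCCACA or the SMAD motif GTCTAGAC, was found in the *Gsc* and *Mesp2* windows. Over 32851 promoter windows of the same length, 4.456% held the LEF/TCF motif, 11.83% the T-box core, 9.988% the GATA motif, 0.7184% the FOXH1 motif and 0.1674% the SMAD motif, and among the 8 members with a promoter entry 3 held the LEF/TCF motif (*T*, *Mesp1* and *Msgn1*) and 3 the T-box core (*T*, *Evx1* and *Mesp1*). *Mesp1* and *Msgn1* were not tested here, and a match is a description of the letters only.

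*Gsc*, *Mesp2* and *Foxh1* were present in ES cells of both genotypes and fell with Dex in both. *Gsc*, a homeobox gene of the anterior streak and organiser (probe at chr12:105709426-105709485), read 16.8%, 12.1% and 16.1% in *Sox7* (+/−) ES cells and 15.1%, 15.5% and 16.01% in *Sox7* (−/−) ES cells, and between 1.57% and 3.80% in XEN-like cells, where it was not well above background. It fell by 2.57 ± 0.27 (SE) on the log2 scale in *Sox7* (+/−) cells (adjusted p = 1.37e-05) and by 2.70 ± 0.27 in *Sox7* (−/−) cells (adjusted p = 7.71e-06), which as lower bounds are at least 1.58-fold and at least 2.07-fold. The 2 genotypes overlapped in ES cells, and their difference was 0.06 ± 0.27. *Foxh1*, which encodes the partner through which Nodal-activated SMADs bind DNA (probe at chr15:76498767-76498826), read 222%, 199% and 184% in *Sox7* (+/−) ES cells and 278%, 290% and 261% in *Sox7* (−/−) ES cells. It fell 19.3-fold to 6.03%, 10.9% and 17.1% in *Sox7* (+/−) XEN-like cells (adjusted p = 6.03e-07), where 1 of the 3 arrays was well above background, and 19.9-fold to 15.7%, 12.5% and 13.5% in *Sox7* (−/−) XEN-like cells (adjusted p = 4.33e-07). *Mesp2*, a basic helix-loop-helix factor of presomitic mesoderm (probe at chr7:86957849-86957908), read 11.4%, 9.28% and 12.7% in *Sox7* (+/−) ES cells and 15.9%, 18.6% and 20.5% in *Sox7* (−/−) ES cells. It fell by 2.50 ± 0.57 on the log2 scale with Dex in *Sox7* (−/−) cells (adjusted p = 0.00285, at least 2.43-fold). In *Sox7* (+/−) cells its call rested on a narrow margin (log2 difference -1.44 ± 0.57, adjusted p = 0.0474, at least 1.12-fold). The *Sox7* (+/−) XEN-like values were 2.16%, 2.65% and 11.7% and overlapped those of ES cells, and the call was lost when any of 9 single arrays was left out. With normexp correction or the deposited table, *Foxh1* kept both calls and *Gsc* and *Mesp2* lost theirs. *Gsc* and *Mesp2* entered the test only through the 2 ES cell groups, which favours a fall with Dex, so their adjusted p are a description.

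*Lhx1*, a LIM-homeobox gene of the streak and of the head organiser (brighter probe at chr11:84335442-84335594), read 12.9%, 13.2% and 13.9% in *Sox7* (+/−) ES cells, 9.57%, 4.43% and 3.71% in *Sox7* (+/−) XEN-like cells, 10.5%, 7.73% and 13.4% in *Sox7* (−/−) ES cells and 7.02%, 7.57% and 12.8% in *Sox7* (−/−) XEN-like cells. Its fall with Dex passed in *Sox7* (+/−) cells (-1.31 ± 0.35 on the log2 scale, adjusted p = 0.00851, at least 1.39-fold) and missed the threshold in *Sox7* (−/−) cells (-0.23 ± 0.35, adjusted p = 0.588), but the difference between the 2 responses was 1.08 ± 0.50 with an adjusted p of 0.138, so it was not shown to differ. Without *Sox7* (+/−) XEN-like replicate 1 that difference was 1.49 and was called, and with normexp correction the fall in *Sox7* (+/−) cells was no longer called. Its second probe was not well above background on all arrays of any group and was not tested. The brighter probe entered the test only through *Sox7* (+/−) ES cells, which favours a fall with Dex in *Sox7* (+/−) cells.

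*Tbx6*, a T-box gene of presomitic mesoderm, was called between genotypes in XEN-like cells by its brighter probe in the main setting. Its brighter probe, at chr7:133929000-133929059, read 24.9%, 34.6% and 23.9% in *Sox7* (+/−) ES cells and 46.2%, 43.6% and 45.8% in *Sox7* (+/−) XEN-like cells, and 18.7%, 16.9% and 21.9% in *Sox7* (−/−) ES cells and 14.8%, 14.3% and 17.8% in *Sox7* (−/−) XEN-like cells. The 2 genotypes of XEN-like cells did not overlap, and the signal was 2.91-fold lower in *Sox7* (−/−) cells (adjusted p = 5.7e-05). The second probe showed the same direction with a smaller difference of -0.72 ± 0.17 on the log2 scale (adjusted p = 0.00984), which was under 2-fold. With normexp correction the difference of the brighter probe was -0.91, under 2-fold as well, and with the deposited table it was not called either. Between XEN-like and ES cells the brighter probe differed by 0.72 ± 0.15 in *Sox7* (+/−) cells, under the 2-fold limit, and the difference from the *Sox7* (−/−) response was -1.02 ± 0.21 (adjusted p = 0.00656). The second probe did not pass there (-0.42 ± 0.24, adjusted p = 0.230), and the call of the brighter probe was lost with spike-in scaling (-0.62) and with the deposited table (-0.33). *Mesp1*, *Mixl1* and *Msgn1*, regulators of nascent mesoderm, mesendoderm and presomitic mesoderm, were not tested. *Mixl1* and *Msgn1* were well above background on none of the 12 arrays and *Mesp1* on 1, at 8.22% on *Sox7* (+/−) ES replicate 2.

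Over the list, 6 of the 10 genes (of 7 tested) were called lower with Dex in *Sox7* (+/−) cells and none higher. For *Evx1*, *Gsc*, *Mesp2* and *Lhx1* the lower bounds given above were under 2-fold, so these calls rest on values below background. Of the 25940 tested probes, 24.9% were called in that comparison, 14.0% lower and 10.9% higher. In *Sox7* (−/−) cells 4 genes were called lower, where 28.8% of probes were called, 14.3% lower and 14.5% higher. The fourth of these was *T*, whose groups were both below background, so that call has no fold. Between genotypes 2 genes were called lower in *Sox7* (−/−) ES cells, where 8.62% of probes were called, 6.67% lower and 1.94% higher. The lower bound of *Evx1* there was also under 2-fold. In XEN-like cells 1 gene was called lower, where 7.51% of probes were called, 3.64% lower and 3.87% higher. The difference between the Dex responses was called for 3 genes, *T* and *Evx1* above 0 and *Tbx6* below it, where 9.80% of probes were called, 6.64% above and 3.16% below. Since *T* and *Evx1* were below background in both *Sox7* (−/−) groups, no Dex response could be measured there, and their term restates the difference in ES cells. *T*, *Evx1* and *Lhx1* entered the test only through *Sox7* (+/−) ES cells, where they were high, which favours a difference from that group. *Gsc* and *Mesp2* entered only through the 2 ES cell groups, which favours a fall with Dex. These counts are therefore a description. The split of calls depended on the setting. Of the probes called with Dex in *Sox7* (+/−) cells 43.8% were higher, against 18.5% with spike-in scaling and 19.6% with the deposited table. Between genotypes in XEN-like cells 51.5% were higher, against 76.6% and 89.9%, and for the differences in response 67.8%, against 89.8% and 89.5%. The deposited table is unscaled and also lacks background subtraction, so its shifts cannot be assigned to scaling alone.

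**Figure D2:**
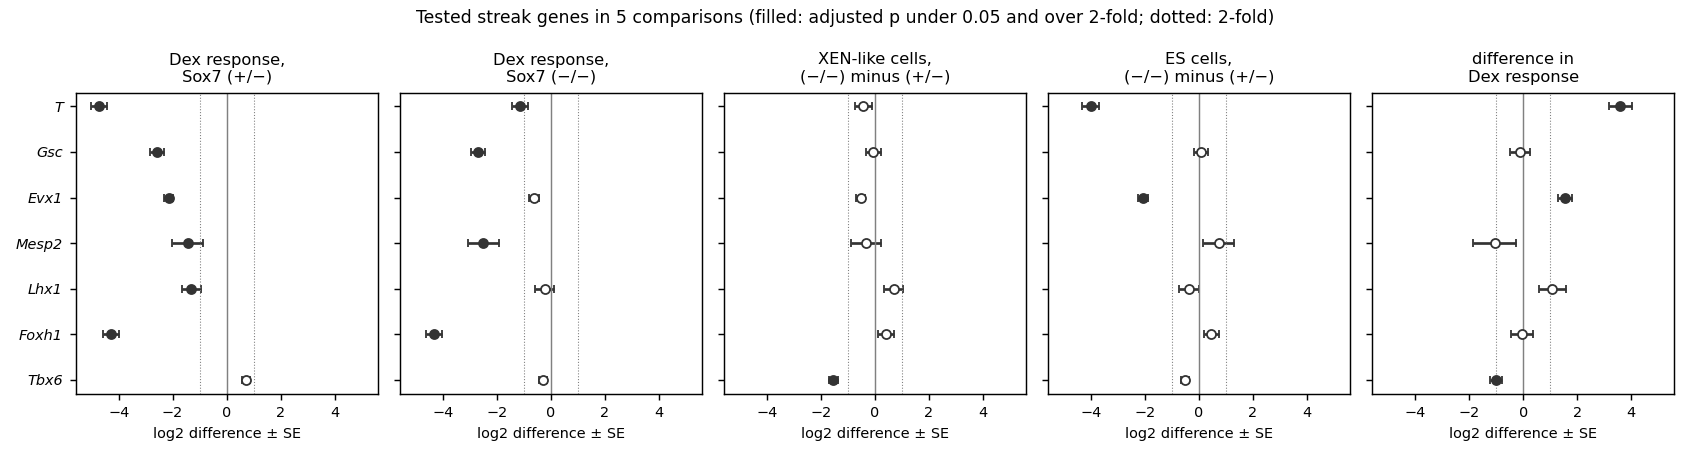
Log2 difference ± SE of the 7 tested genes in 5 comparisons; filled points passed adjusted p under 0.05 and 2-fold, and dotted lines mark 2-fold. In *Sox7* (−/−) cells the filled point of *T* compares groups that were both below background; in ES cells *T* lies at -4.02 and *Evx1* at -2.07.

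Genes of the signalling pathways that induce the streak, including inhibitors such as *Lefty2*, were read from a list of 20 genes. In the ES cell comparison, 4 of 19 tested signal genes were called lower and 1 higher, beside 6.67% and 1.94% of all probes. *Wnt3* and *Wnt8a*, like *Sp5* of the list shared with endoderm, entered the test only through *Sox7* (+/−) ES cells, where they were high, so that this count too is a description. *Wnt3*, the ligand that starts the streak, was at least 2.03-fold lower and *Wnt8a* at least 2.36-fold lower in *Sox7* (−/−) ES cells, and *Fgf8* was 6.89-fold lower. The signal gene called higher was *Bmp4*, by 1.56 ± 0.43 on the log2 scale (adjusted p = 0.0139). It read 1300%, 1421% and 1415% in *Sox7* (+/−) and 4031%, 4122% and 3996% in *Sox7* (−/−) ES cells. *Wnt3* read 16.2%, 21.6% and 17.9% in *Sox7* (+/−) ES cells and was not well above background on the other 9 arrays. *Sp5*, a direct target of Wnt signalling that is counted with the genes shared with endoderm, read 166%, 196% and 200.3% in *Sox7* (+/−) ES cells and between 1.73% and 7.58% elsewhere, at least 20.6-fold lower in *Sox7* (−/−) ES cells. *Axin2* and *Lef1* of the signal list, named after their values were seen, were not called between genotypes in ES cells. Their log2 differences there were -0.41 ± 0.29 (adjusted p = 0.274) and -0.32 ± 0.37 (adjusted p = 0.518). *Nodal*, named after its values were seen, read 1139%, 1242% and 1216% in *Sox7* (+/−) and 608%, 611% and 626% in *Sox7* (−/−) ES cells, and *Lefty2*, a feedback inhibitor of Nodal, read 744% to 747% and 642% to 764%.

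With Dex, 10 of the 19 signal genes were called lower and 4 higher in *Sox7* (+/−) cells, beside 14.0% and 10.9% of all probes, and 9 lower and 3 higher in *Sox7* (−/−) cells, beside 14.3% and 14.5%. Some of these genes, among them *Fgf4*, *Lefty2*, *Wnt3* and *Wnt8a*, entered the test only through ES cells, where they were high. That favours a fall with Dex, so these counts too are a description. The counts use the brightest probe of a gene, and other probes can differ. For *Tdgf1*, named after its values were seen, the brightest probe changed by -0.67 on the log2 scale in *Sox7* (+/−) cells and was not called. Its other probes changed there by -6.84 and -8.34 and were called lower. *Nodal* fell 43.3-fold and 26.1-fold, *Lefty2* 69.2-fold and 68.6-fold with 1 and 2 of the 3 XEN-like arrays well above background, *Bmp4* 58.5-fold and 121-fold with 2 and 3 of them, and *Fgf4* at least 408-fold and at least 750-fold. *Cfc1*, the Nodal coreceptor Cryptic, rose 8.47-fold and 90.0-fold, and among XEN-like cells the *Sox7* (−/−) signal was 4.35-fold that of *Sox7* (+/−). *Eomes*, a T-box gene used by both the streak and the visceral endoderm, read 180.1%, 170.5% and 176% in *Sox7* (+/−) ES cells and 49.2%, 45.7% and 51.5% after Dex, and fell by 1.85 ± 0.09 on the log2 scale. The *Sox7* (−/−) arrays read 123%, 124% and 127% without Dex and 160%, 201% and 184% with it, a difference of 0.53 ± 0.09 on the log2 scale that was under 2-fold. The 2 responses differed by 2.38 ± 0.12 (adjusted p = 9.49e-07). Of the 12 tested genes shared with endoderm, 6 were called higher with Dex in each genotype, among them *Foxa2*, *Sox17* and *Gata4*, and 4 and 2 lower, among them *Otx2* and *Fgf5*.

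**Figure D3:**
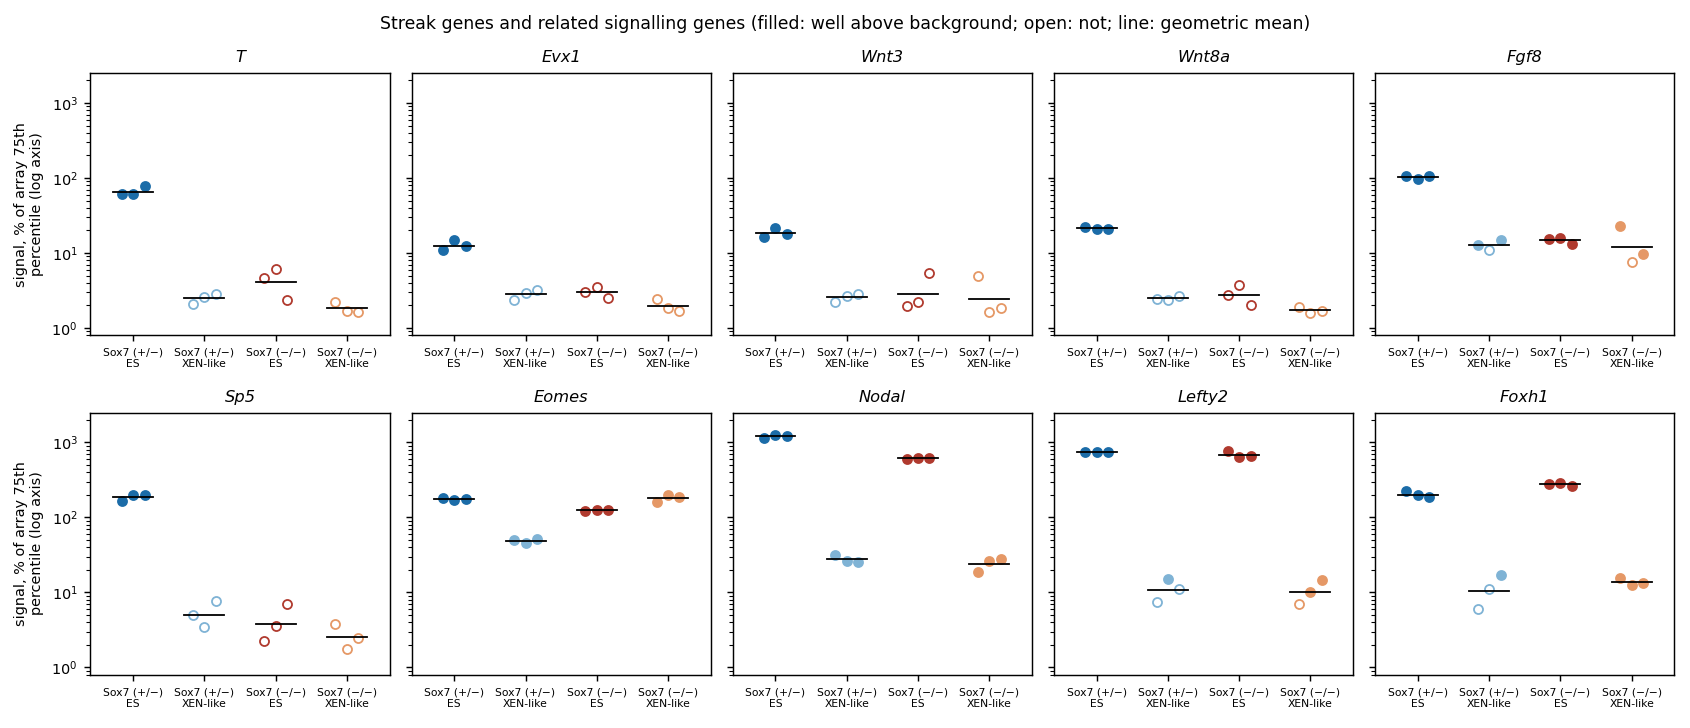
Signal of *T*, *Evx1*, *Foxh1* and 7 related genes on the 12 arrays, as a percent of the array's 75th percentile on a log axis; filled points were well above background and the line is the geometric mean. *Wnt3*, *Wnt8a* and *Sp5* have filled points in *Sox7* (+/−) ES cells only, whereas *Nodal* and *Lefty2* are filled in ES cells of both genotypes.

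Genes of later mesoderm were called in both directions. With Dex 3 of 12 tested genes were called higher and 4 lower in *Sox7* (+/−) cells, beside 10.9% and 14.0% of all probes, and 4 and 3 in *Sox7* (−/−) cells, beside 14.5% and 14.3%. *Rspo3*, a Wnt agonist, rose 37.1-fold and 27.1-fold, and *Tcf15*, of paraxial mesoderm, fell at least 131-fold and 106-fold. Lists that mark other cells also held called genes in the ES cell comparison, where 6.67% of all probes were called lower and 1.94% higher. Of 7 tested trophectoderm genes, 6 were called lower in *Sox7* (−/−) ES cells, among them *Cdx2* (4.34-fold), *Krt7* (5.64-fold) and *Gata3* (3.93-fold), and the summed level of the list was 10549% to 10759% in *Sox7* (+/−) and 2368% to 2575% in *Sox7* (−/−) ES cells. Most of that sum was *Krt8* alone, at 9783% to 9991% and 2007% to 2239%. *Cdx2* was well above background on 1 of the 3 *Sox7* (−/−) ES arrays. *Cdx2* and *Hand1* are also expressed in mesoderm. Of the 18 extraembryonic endoderm genes, 6 were called lower, among them *Ihh* and *Thbd*. Of the 12 pluripotency genes, 3 were called higher in *Sox7* (−/−) ES cells and none lower, and they were *Esrrb*, *Klf4* and *Zfp42*. The part of these lists and of the clone in the difference in *T* and *Evx1* was not tested. With slide as a block, the fitted difference in ES cells was -4.45 for *T* and -2.52 for *Evx1*, but the slide term rests on the 3 *Sox7* (−/−) XEN-like arrays, 1 of them on slide 2, where both genes were below background. For these genes the genotype and the slide in ES cells therefore cannot be told apart.

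**Figure D4:**
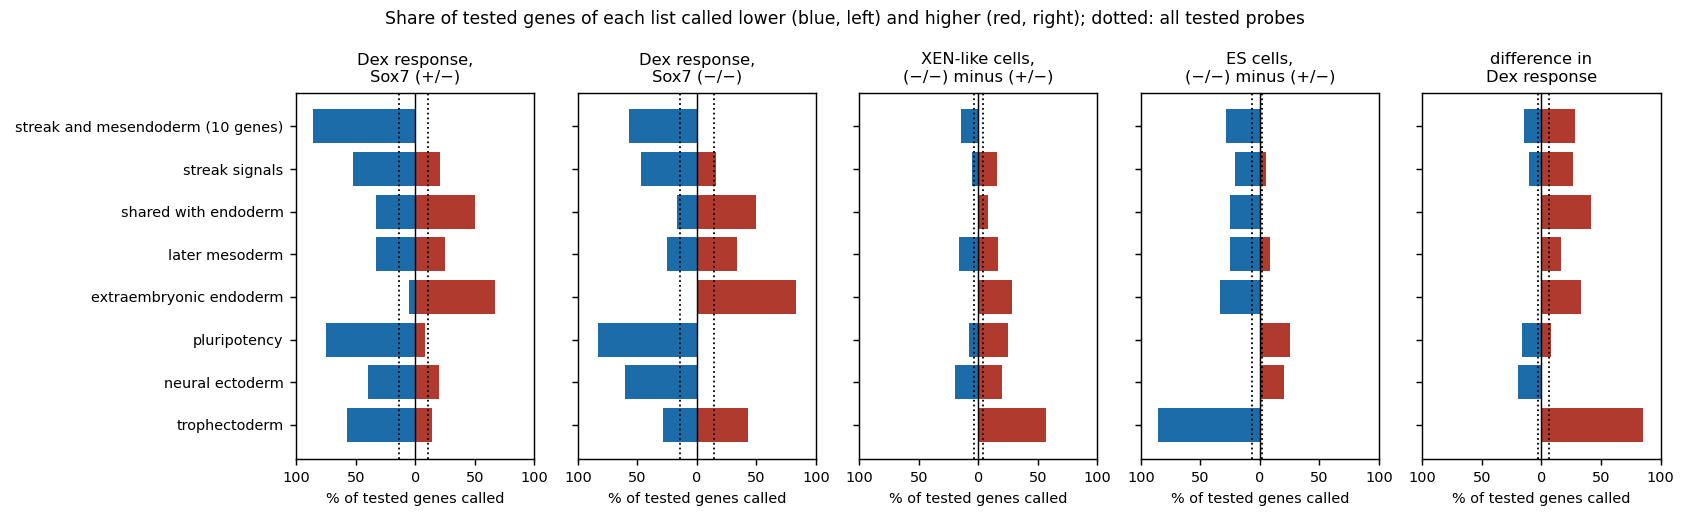
Percent of the tested genes of each list called lower (left) and higher (right) in 5 comparisons, with dotted lines at the percent of all tested probes. In *Sox7* (−/−) ES cells the streak genes (2 of 7) and the trophectoderm genes (6 of 7) are called lower.

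Over the 12 arrays, the probe pattern closest to *T* was that of *Psmb8* (Pearson r = 0.997), then *Gm21319* and *Twist2* (both 0.994). *Wnt8a* was among the 3 closest to *Evx1* (r = 0.987), and *Samd5* was closest to *Gsc* (r = 0.995). *Dtx1* was closest to *Foxh1* (r = 0.997), *Slc41a2* to *Tbx6* (r = 0.953) and *Acbd7* to *Lhx1* (r = 0.892), while the closest to *Mesp2* was a probe without a gene symbol (r = 0.971). The 12 points fall in the same 4 groups, so these values describe likeness between group patterns and carry no p.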

How the data were processed

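RNA of 12 samples was labelled with Cy3 and hybridised to Agilent SurePrint G3 mouse arrays, 1 sample each. The deposited intensity values are scanner output of Agilent Feature Extraction 10.7.3.1, per the file headers with background subtraction, and the authors also deposited a table of signals, which stayed within 0.498% of the mean spot signal of these files. Probe coordinates in the files are of mm9. The main values were log2 of the processed signal minus each array's 75th percentile, after outlier-flagged spots (139 to 190 per array) were left out and spots of a probe averaged. The fit took the 25940 probes that some group had well above background on each of its 3 arrays, and used limma (version 3.58.1, R version 4.3.3) with a mean for every group over all 12 arrays. Where a group was below background on all its arrays, the fold is a lower bound: the brighter group against the lowest signal well above background on each dim array, or the probe's own value where that was higher. The number of arrays limits the precision. Alternatives were normexp background correction, quantile and spike-in scaling, the deposited table, other filters, slide and replicate blocks and leaving out each array. The deposited table is unscaled and near the mean spot signal, without background subtraction, so it differs from the main values in both. Replicate numbers did not pair the samples: the deviations of same-numbered arrays correlated from -0.051 to 0.126. The text names all members, *Sox7*, at most the 4 called genes with the largest log2 change per list and comparison, any gene of the list shared with endoderm, and the 3 genes closest to each tested member. The members and lists were chosen with earlier results of these data known. The statistics were tested on simulated data. Sequences are from RefSeq, and 8 of the 10 members had a promoter entry. The exon or UTR that each probe lies in was not analysed here.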

Additional observations from a re-analysis of the deposited data

Results flagged for a closer look

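The interaction term of the limma fit, which compares the Dex responses of the genotypes, passed for 3 genes. For *T* it was 3.59 on the log2 scale (adjusted p = 2.28e-04) and for *Evx1* 1.54 (adjusted p = 0.00175). Both genes were below background in both *Sox7* (−/−) groups, so no Dex response could be measured there, and the term restates the difference between the genotypes in ES cells. They also entered the test only through *Sox7* (+/−) ES cells, where they were high. For *Tbx6* it was -1.02 (adjusted p = 0.00656) by the brighter probe and -0.42 (adjusted p = 0.230) by the second, whose *Sox7* (−/−) change was 0.24 against -0.30. The *Tbx6* call was lost when any of 5 single arrays was left out, with spike-in scaling (-0.62) and with the deposited table (-0.33).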

How the results depend on the processing

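The counts of called members were 6, 4, 1, 2 and 3 for the Dex response in *Sox7* (+/−) cells, that in *Sox7* (−/−) cells, the genotypes in XEN-like cells, the genotypes in ES cells and the difference in response. With normexp background correction they were 2, 1, 0, 1 and 1, and with the deposited table without scaling again 2, 1, 0, 1 and 1. Calls over all probes fell as well. They were 6449, 7476, 1948, 2235 and 2543 in the main setting and 3460, 4621, 709, 898 and 1383 with normexp correction. With the deposited table they were 4336, 5023, 1295, 1033 and 2121. With the filter on all 12 arrays, which leaves *Tbx6* as the tested member, the counts of called members were 0, 0, 1, 0 and 1. Without a minimum fold 2 genes were called between genotypes in XEN-like cells. Leaving out each array gave 5 to 6, 3 to 4, 1 to 2, 2 to 2 and 2 to 4. The added call in XEN-like cells was *Lhx1* without *Sox7* (+/−) XEN-like replicate 1 (1.12 on the log2 scale), which also gave it a called difference in response of 1.49. *T* in *Sox7* (−/−) cells was lost without *Sox7* (−/−) ES replicate 2, with normexp correction, with the deposited table, with quantile normalisation (-0.98) and with slide as a block (-0.85). On the 4 arrays of slide 2 alone, an alternative chosen after seeing the data, it was -0.85 as well, but the XEN-like arm there is 1 array, assumed to vary like the ES arrays. *Tbx6* lost its called difference in response with normexp correction (-0.64), with spike-in scaling (-0.62), with the deposited table (-0.33) and without each of 5 arrays. *Mesp2* in *Sox7* (+/−) cells was lost with normexp correction, with the deposited table, without a filter on dim probes, with only the arrays compared, and without each of 9 arrays. With replicate number as a block the counts were 6, 4, 1, 2 and 3, so the block changed no count. Of 775 values under the alternatives for single genes, 726 stayed on the same side of the threshold, 43 lost a call and 6 gained one. The median of all probes with Dex in *Sox7* (+/−) cells was 0.15 in the main setting, -0.34 with spike-in scaling and -0.23 with the deposited table. Dim probes limit what can be measured: below background only bounds are given. The causes of these changes were not tested, and day 4 alone was measured, so transient expression before it is not covered.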
